A study of Mus musculus with 12 samples.

Results

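This account follows 41 genes of the response to low oxygen and of glycolysis in the skin of BALB/c mice with LL37-induced, rosacea-like inflammation. The genes were taken by name from a list of such genes, which was drawn up with earlier results of these data known. All 41 were found among the 52636 genes of the count table, and all 41 were among the 17993 genes that passed the filter on low counts. They were placed in 8 groups by role, namely oxygen sensing (4 genes), transport of glucose and lactate (3), upper glycolysis (10), lower glycolysis (6), mitochondria (5), collagen and disulfide enzymes (6), glycogen (2), and signalling and chromatin (5). RNA sequencing of whole skin was done in 4 groups of 3 libraries each. Control mice, LL37 mice, LL37 mice given rapamycin (LL37 + RAPA) and control mice given rapamycin (control + RAPA) were compared. LL37 is the human cathelicidin peptide, and RAPA inhibits mTORC1, a kinase complex that promotes growth and sugar metabolism. By the methods of the study, the mice were wild type and female, aged 6 to 8 weeks (8 weeks at injection), the shaved back received 40 µl of LL37 or vehicle into the dermis 2 times per day for 2 days, and BALB/c mice given RAPA received 4 mg/kg per day into the peritoneum. These methods are not stated separately for the sequenced mice. The labels do not say whether each library came from 1 mouse, nor how the sequenced control + RAPA mice were injected in the back.

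Cells sense oxygen through prolyl hydroxylases such as EGLN1 and EGLN3, which mark the HIF alpha proteins for degradation when oxygen is plentiful. When oxygen is short, HIF-1α (Hif1a) and HIF-2α (Epas1) pair with ARNT and bind DNA at a short core sequence, and they raise the transcription of glucose transporters, glycolytic enzymes and enzymes that mature collagen. Hif1a itself is controlled mainly at the protein level, and mTORC1 is known to promote both its transcription and its translation. In skin, the epidermis relies on glycolysis, and skeletal muscle under the dermis carries its own isozymes of several glycolytic steps.

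The HIF binding core, ACGTG, is shown first in the sequence upstream of 5 genes. They were called in the interaction of LL37 and RAPA given below and differed between LL37 and LL37 + RAPA by more than 2-fold. Among such genes they were chosen because they have 1 window and it holds the core. Pfkl met the same limits, but its window holds no ACGTG and is not shown. Other genes that differed by more than 2-fold and hold the core, such as Hif1a, Hk2 and Pgam1, were not called in the interaction and are not shown. Also shown is 1 gene, Gys1, that was lower in LL37 skin and holds no core. Aldoa, which fell and holds the core, is not shown. The choice cannot show how common the core is among such genes. The sequences are the 250 bases before the RefSeq start in GRCm38.p6, read 5′ to 3′ on the strand of the gene, and capitals mark ACGTG or its complement CACGT.
Slc2a1, chr4:119108495-119108744, plus strand: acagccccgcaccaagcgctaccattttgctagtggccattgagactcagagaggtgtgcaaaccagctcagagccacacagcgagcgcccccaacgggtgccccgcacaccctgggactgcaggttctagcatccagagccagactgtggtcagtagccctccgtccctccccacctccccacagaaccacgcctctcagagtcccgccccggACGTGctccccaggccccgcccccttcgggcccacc
Slc16a3, chr11:120948817-120949066, plus strand: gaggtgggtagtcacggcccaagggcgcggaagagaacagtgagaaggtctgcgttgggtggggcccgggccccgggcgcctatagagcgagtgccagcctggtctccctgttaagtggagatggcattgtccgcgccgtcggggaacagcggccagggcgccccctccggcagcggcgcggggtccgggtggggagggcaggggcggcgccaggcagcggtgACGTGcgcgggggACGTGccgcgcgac
Egln3, chr12:54203875-54204124, minus strand: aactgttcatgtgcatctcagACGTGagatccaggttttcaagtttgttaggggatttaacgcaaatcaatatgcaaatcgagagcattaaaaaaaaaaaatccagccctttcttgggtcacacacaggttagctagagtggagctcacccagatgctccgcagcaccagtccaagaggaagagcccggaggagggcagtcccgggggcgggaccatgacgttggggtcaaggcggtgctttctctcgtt
Ero1l, chr14:45318573-45318822, minus strand: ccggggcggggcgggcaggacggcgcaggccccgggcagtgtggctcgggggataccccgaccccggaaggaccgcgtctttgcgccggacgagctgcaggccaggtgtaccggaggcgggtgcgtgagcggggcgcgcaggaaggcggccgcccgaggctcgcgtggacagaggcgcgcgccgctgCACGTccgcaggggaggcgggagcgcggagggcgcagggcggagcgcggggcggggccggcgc
Pgk1, chrX:106186850-106187099, plus strand: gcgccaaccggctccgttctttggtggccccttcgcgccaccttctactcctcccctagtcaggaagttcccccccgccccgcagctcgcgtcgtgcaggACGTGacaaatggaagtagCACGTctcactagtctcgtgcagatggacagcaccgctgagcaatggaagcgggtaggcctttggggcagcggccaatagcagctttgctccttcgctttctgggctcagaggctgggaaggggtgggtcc
Gys1, chr7:45434589-45434838, plus strand: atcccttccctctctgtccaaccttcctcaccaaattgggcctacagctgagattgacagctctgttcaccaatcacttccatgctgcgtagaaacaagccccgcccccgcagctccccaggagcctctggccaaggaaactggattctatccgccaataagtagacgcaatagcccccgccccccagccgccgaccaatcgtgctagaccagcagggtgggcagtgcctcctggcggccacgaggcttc

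RefSeq windows of 300 bases, 250 before and 50 after the start, were found for 35 of the 41 genes, which had 52 windows in all. No window was at hand for Epas1, Bnip3l, Plod2, Lox, Loxl2 and Ndrg1. On either strand, ACGTG was present in 28 of the 52 windows (53.8%), beside 19.6% of 32851 windows of all genes. By gene, 25 of 35 (71.4%) held the core in at least 1 window, beside 21.8% of 27025 genes. The 41 genes were listed as genes of the response to low oxygen and of glycolysis. Their excess of the core over all genes belongs to that choice and cannot be read as a result of these data. The core of Slc2a1 begins at -36 from the start, that of Ero1l at -63 and that of Egln3 at -229. Of 22 genes with a window that rose in LL37 vs control, 17 (77.3%) held ACGTG, and of 4 that fell only Aldoa did. Among genes not called, Hk2, Gapdh, Pkm, Ldha, Bnip3, Ddit4 and Mxi1 also held it, whereas Tpi1 and Pdk1 did not. The core thus did not separate genes that rose from genes that were not called. The variant GCGTG, which can share end bases with a neighbouring ACGTG, was in 30 of the 52 windows (57.7%), beside 32.4% of all windows. CACGTG, the E-box that other factors also bind, contains ACGTG on both strands and was counted 1 time. A match describes the letters of the window and does not show that HIF binds there.

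Library totals lay between 15734559 and 23271784 counts, so that 3 counts corresponded to 0.123 to 0.184 CPM (counts scaled to a library of fixed size, with TMM factors throughout). On the first principal component, LL37 replicate 3 (64.4) stood apart from LL37 replicates 1 and 2 (133 and 129), on the side of the other groups. Of the 26 genes of the list that rose in LL37 vs control, 17 were lowest in LL37 replicate 3 among the LL37 libraries, and 22 were highest in LL37 replicate 1. Without this library, 31 of the 41 genes were called against control and 29 against LL37 + RAPA, beside 30 and 29 with it, while the share of all genes called was 47.8% and 34.8%, beside 42.6% and 24.2%.

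In LL37 vs control, which asks what changed in the inflamed skin, 26 of the 41 genes rose and 4 fell at an adjusted p under 0.05, and 11 were not called. Of all 17993 genes tested, 21% rose and 21.6% fell, 42.6% in either direction. The median log2 fold change was 0.78 over the 41 genes and -0.0049 over all genes tested. Changes of more than 2-fold made up 18 of the rises and 3 of the falls, beside 8.73% and 10.8% of all genes. The libraries of LL37 and control did not overlap for 30 of the 41 genes, beside 49.7% of all genes. In LL37 vs LL37 + RAPA, which asks what differed when mTORC1 was inhibited, 29 genes were higher without RAPA and 0 were lower, beside 11.8% and 12.4% of all genes. The median difference was 0.92 for the 41 genes and -0.0042 for all genes. Of these 29, 17 differed by more than 2-fold, beside 4.33% of all genes in that direction, and the libraries of 34 genes did not overlap, beside 38.3% of all genes. The 2 comparisons use the same LL37 libraries, so the values of each gene are given side by side.

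**Figure D1:**
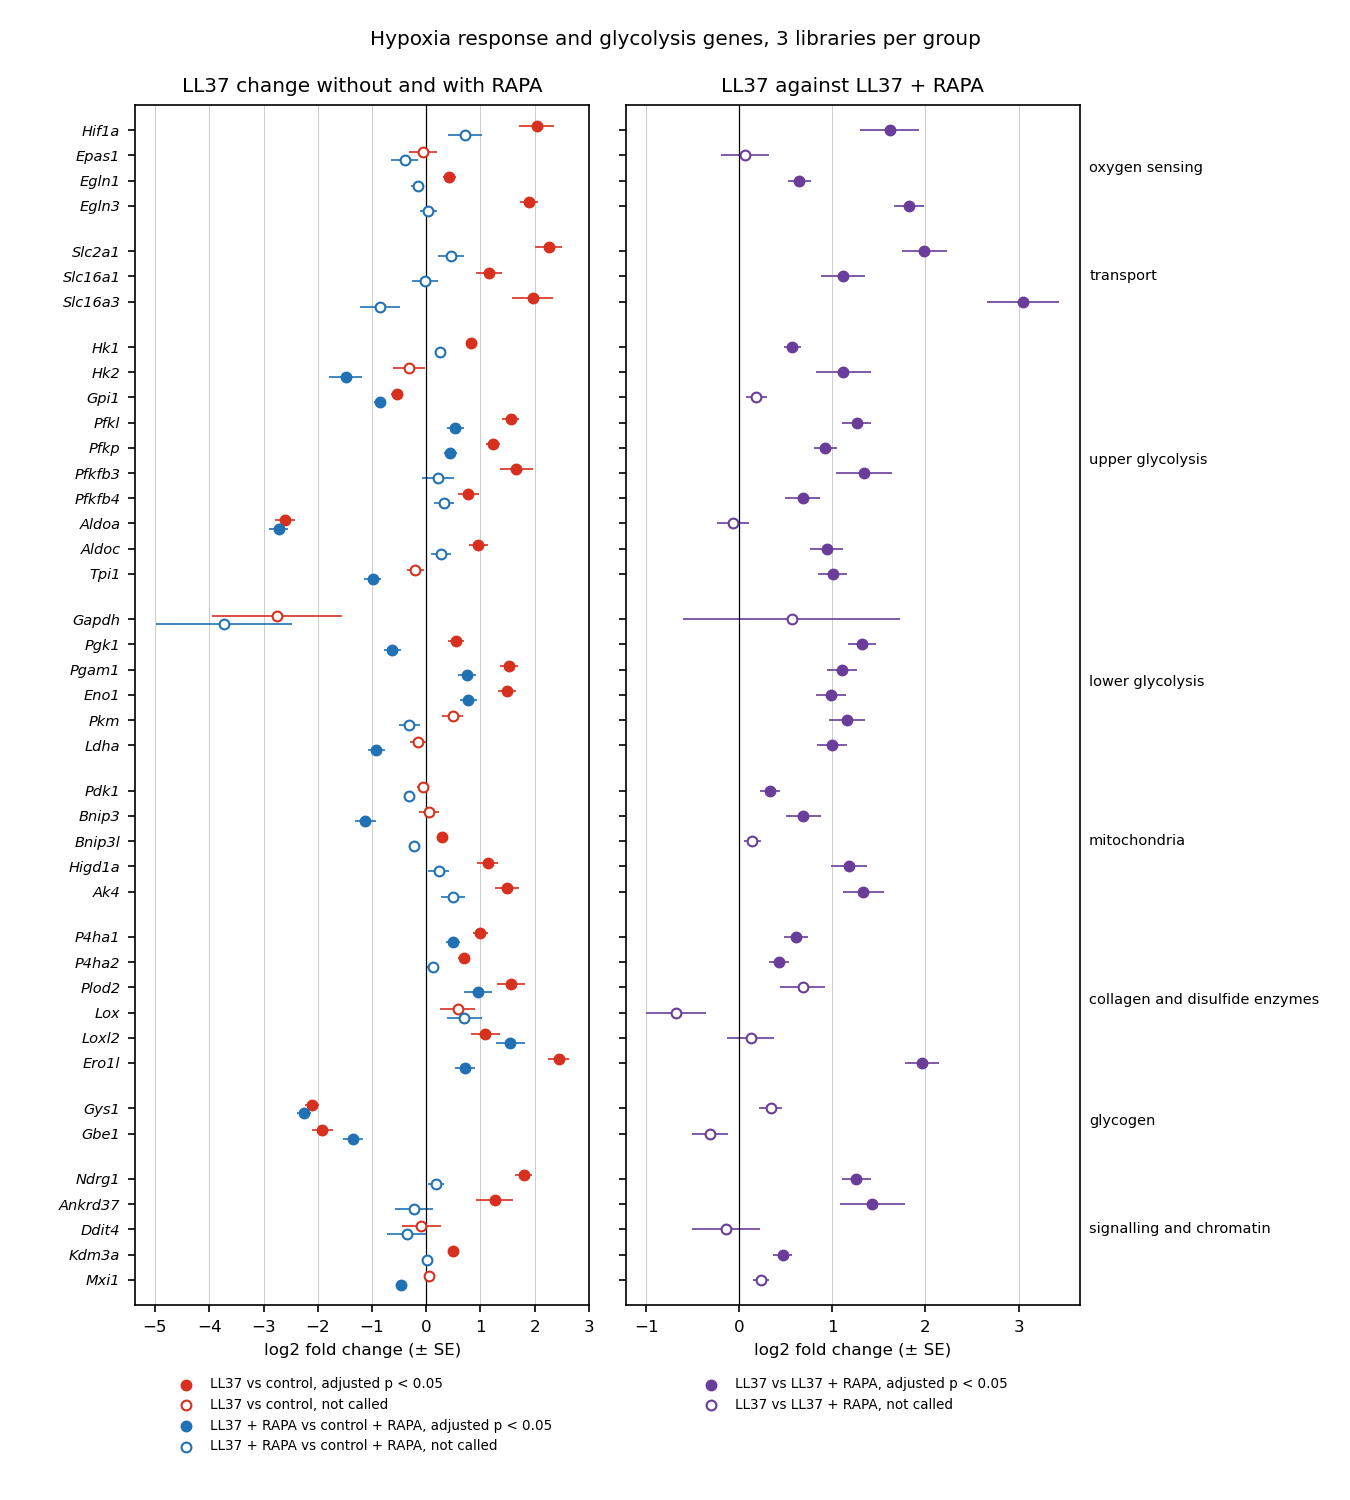
Log2 fold change ± SE of each of the 41 genes, grouped by role, for LL37 vs control (red) and LL37 + RAPA vs control + RAPA (blue) on the left and for LL37 vs LL37 + RAPA (purple) on the right, with filled points where the adjusted p was under 0.05. Of the red points, 26 are filled to the right of 0 and 4 to the left, and of the purple points 29 are filled to the right and 0 to the left.

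Among the genes of oxygen sensing, Hif1a rose and Epas1 did not. Hif1a (ENSMUSG00000021109, chr12:73901375-73947530) was at 60.4, 70.7 and 73.5 CPM in control and at 377, 340.3 and 125 CPM in LL37. With RAPA it was at 82.4, 110.1 and 82.3 CPM in LL37 + RAPA and at 58.9, 48.3 and 60.8 CPM in control + RAPA. All LL37 libraries were above all others, with replicate 3 the lowest of them. The log2 fold change was 2.04 ± 0.32 (SE, adjusted p = 0.000451) in LL37 vs control and 1.62 ± 0.31 (adjusted p = 0.00526) in LL37 vs LL37 + RAPA. Hif1a shares exons with the predicted gene Gm49321 on the same strand, so its counts are uncertain to that extent. Epas1 was at 166, 134 and 136 CPM in control, 162, 179 and 76.4 in LL37, 130.0, 136 and 134 in LL37 + RAPA and 143, 215 and 168 in control + RAPA. These ranges overlap, and its log2 fold change was -0.06 ± 0.25 (adjusted p = 0.862) in LL37 vs control and 0.06 ± 0.25 (adjusted p = 0.885) in LL37 vs LL37 + RAPA.

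Both hydroxylase genes rose, Egln3 far more than Egln1. Egln3, which is itself a HIF target (ENSMUSG00000035105, chr12:54178981-54203860), was at 81.2, 78.2 and 119.7 CPM in control and 388, 297 and 357 CPM in LL37. It was at 89.9, 108 and 97.3 CPM in LL37 + RAPA and 93.3, 94.3 and 98.9 CPM in control + RAPA, so that the 9 libraries outside LL37 lay close together. Its log2 fold change was 1.90 ± 0.16 (adjusted p = 7.47e-06) in LL37 vs control and 1.82 ± 0.16 (adjusted p = 0.000332) in LL37 vs LL37 + RAPA. Egln1, the main oxygen sensor in most tissues, was at 121, 124 and 123 CPM in control, 189.7, 149 and 157 in LL37, 98.4, 122 and 96.6 in LL37 + RAPA and 129, 103 and 122 in control + RAPA. It rose by 0.43 ± 0.12 (adjusted p = 0.0156) in LL37 vs control and was 0.65 ± 0.12 (adjusted p = 0.00492) higher in LL37 than in LL37 + RAPA. The first of these calls was lost without LL37 replicate 1 (adjusted p = 0.0759), control replicate 1 (0.0504) or control replicate 3 (0.0503).

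All 3 transporter genes rose in LL37 skin and were lower with RAPA. Slc2a1, which encodes the glucose transporter GLUT1 (ENSMUSG00000028645, chr4:119108711-119137983), was at 65.9, 77.2 and 100.3 CPM in control and 531, 373 and 263 CPM in LL37. It was at 87.5, 117 and 89.4 CPM in LL37 + RAPA and 73.1, 59.9 and 80.8 CPM in control + RAPA. The log2 fold change was 2.26 ± 0.25 (adjusted p = 4.27e-05) in LL37 vs control and 1.99 ± 0.24 (adjusted p = 0.00124) in LL37 vs LL37 + RAPA. Slc16a3, the lactate exporter MCT4 (ENSMUSG00000025161, chr11:120948480-120960868), was at 107, 68.0 and 112 CPM in control, 445, 501 and 172 in LL37, 31.2, 54.4 and 49.1 in LL37 + RAPA and 104, 62.1 and 77.4 in control + RAPA. LL37 + RAPA libraries were thus the lowest of all, below every control library. The difference in LL37 vs LL37 + RAPA, 3.05 ± 0.39 (adjusted p = 0.00129), was the largest of the 41 genes in that comparison, and the rise in LL37 vs control was 1.96 ± 0.37 (adjusted p = 0.00143). In LL37 + RAPA vs control, Slc16a3 differed by -1.09 ± 0.36 (adjusted p = 0.0707) and was not called. Slc16a1, the lactate transporter MCT1, went from 51.4 ± 13.3 CPM (SD, n = 3) in control to 115 ± 39.9 in LL37 and was at 53.0 ± 1.36 in LL37 + RAPA, and it was called in both comparisons.

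**Figure D2:**
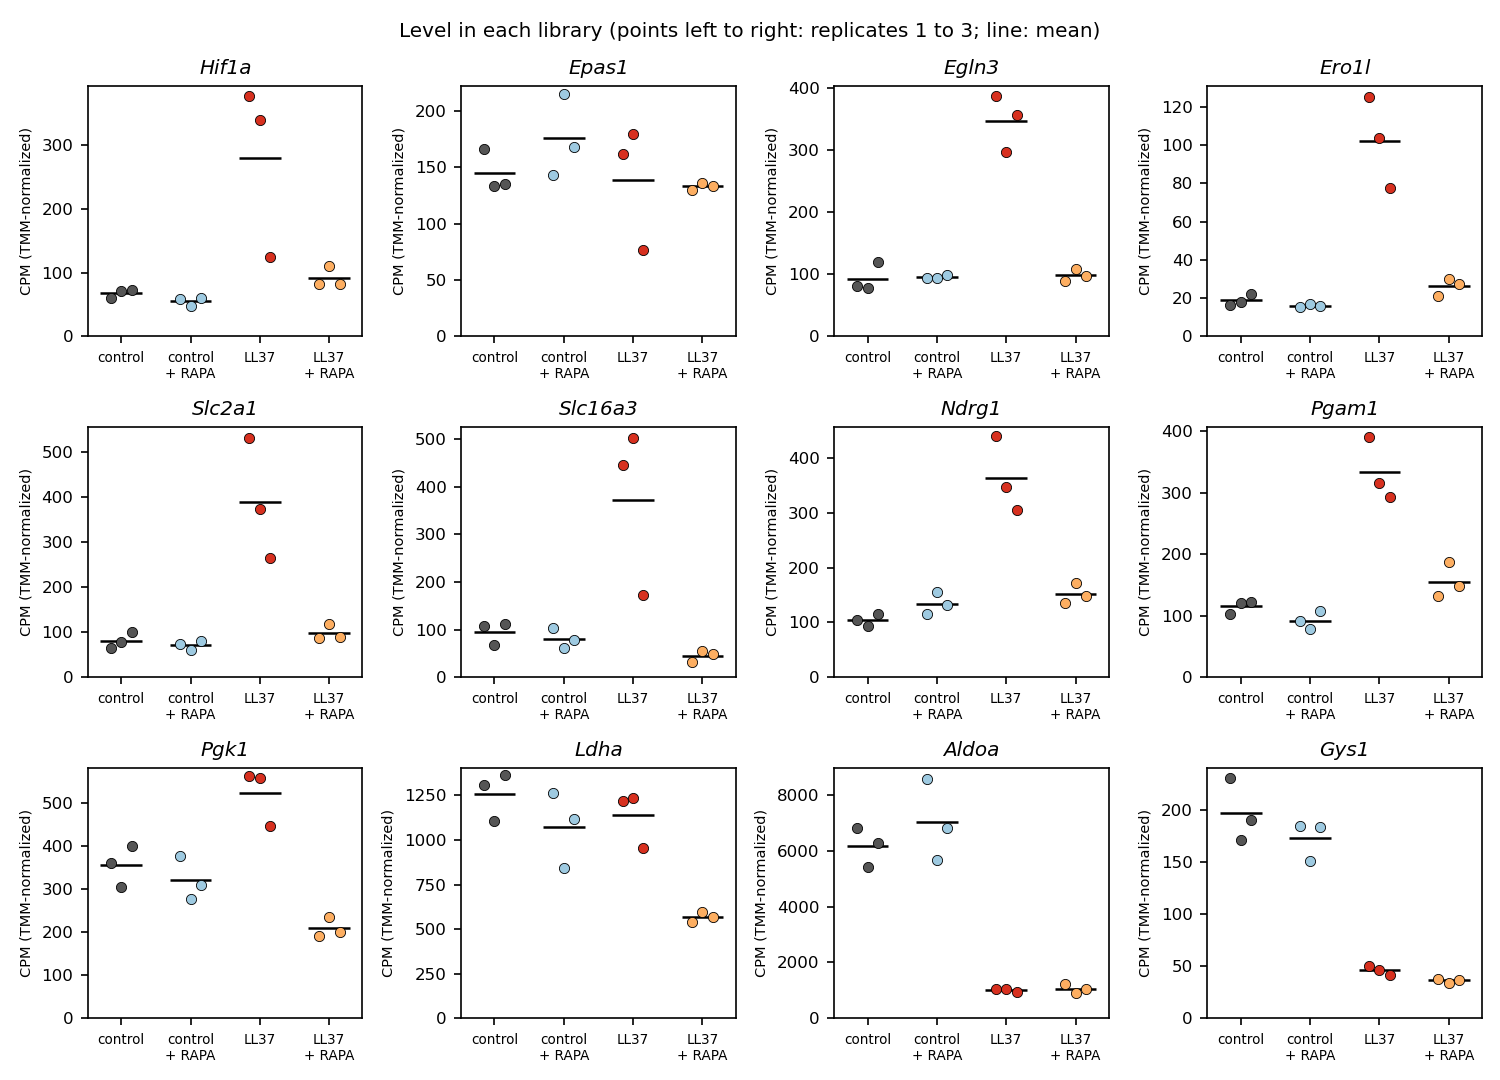
CPM on a linear axis from 0 in each library for 12 of the genes, with points from left to right for replicates 1 to 3 and a line at the group mean. LL37 points lie above all others for Hif1a, Egln3, Ero1l, Slc2a1, Slc16a3, Ndrg1, Pgam1 and Pgk1. LL37 + RAPA points lie lowest for Slc16a3, Pgk1, Ldha and Gys1. Both LL37 groups lie far below the groups without LL37 for Aldoa and Gys1.

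In upper glycolysis, 6 of 10 genes rose in LL37 vs control and 2 fell, beside 21% and 21.6% of all genes. Higher in LL37 than in LL37 + RAPA were 8, beside 11.8% of all genes. The genes that rose encode hexokinase 1 (Hk1), the liver and platelet types of phosphofructokinase (Pfkl and Pfkp), the bifunctional enzymes that set the level of its activator fructose 2,6-bisphosphate (Pfkfb3 and Pfkfb4), and aldolase C (Aldoc). Pfkl went from 92.3 ± 14.1 CPM in control to 272 ± 32.0 in LL37 and 113 ± 12.1 in LL37 + RAPA, with log2 differences of 1.56 ± 0.16 (adjusted p = 2.48e-05) and 1.26 ± 0.16 (adjusted p = 0.00124). Pfkfb3 was at 46.0, 34.8 and 64.8 CPM in control and 231, 141 and 87.2 CPM in LL37, with replicate 3 nearest to control. It was at 60.1, 56.4 and 64.9 CPM in LL37 + RAPA and 46.0, 50.6 and 59.0 CPM in control + RAPA, and the rise in LL37 vs control was 1.66 ± 0.30 (adjusted p = 0.00121). Pfkp rose by 1.23 ± 0.12, Aldoc by 0.96 ± 0.18, Hk1 by 0.82 ± 0.09 and Pfkfb4 by 0.78 ± 0.19 on the log2 scale, and all were higher in LL37 than in LL37 + RAPA.

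Aldoa, Gpi1, Hk2 and Tpi1, the other genes of upper glycolysis, did not rise. Aldoa, the aldolase of muscle and most other tissues (ENSMUSG00000030695, chr7:126795234-126800751), was at 6799, 5432 and 6265 CPM in control and 1058, 1043 and 944 CPM in LL37. It was at 1244, 903 and 1048 CPM in LL37 + RAPA and 8574, 5679 and 6824 CPM in control + RAPA. The 6 libraries with LL37 were far below the 6 without, with a log2 fold change of -2.60 ± 0.18 (adjusted p = 1.92e-06) in LL37 vs control and -0.07 ± 0.17 (adjusted p = 0.797) in LL37 vs LL37 + RAPA. Another row with the symbol Aldoa, at 22 to 286 counts per library, changed by -2.74 ± 0.58 (adjusted p = 0.00281) in LL37 vs control, and reads could be split between them. Gpi1, glucose phosphate isomerase, fell from 671 ± 49.8 to 461 ± 17.1 CPM (log2 fold change -0.54 ± 0.11, adjusted p = 0.00273) and was at 406 ± 13.9 CPM in LL37 + RAPA. Hk2, hexokinase 2, and Tpi1, triose phosphate isomerase, were not called in LL37 vs control (-0.32 ± 0.29 and -0.20 ± 0.16) but were 1.12 ± 0.30 (adjusted p = 0.0204) and 1.00 ± 0.16 (adjusted p = 0.00233) higher in LL37 than in LL37 + RAPA.

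Lower glycolysis had 3 of 6 genes higher in LL37 vs control and 0 lower, beside 21% and 21.6% of all genes. Higher in LL37 than in LL37 + RAPA were 5, beside 11.8% of all genes. Pgam1, phosphoglycerate mutase 1 (ENSMUSG00000011752, chr19:41911923-41918660), was at 102, 121 and 123 CPM in control, 391, 316 and 293 in LL37, 131, 186 and 148 in LL37 + RAPA and 91.0, 78.5 and 107 in control + RAPA. Its log2 fold change was 1.53 ± 0.16 (adjusted p = 3.56e-05) in LL37 vs control and 1.10 ± 0.16 (adjusted p = 0.00175) in LL37 vs LL37 + RAPA, and LL37 + RAPA libraries stood between the others. Eno1, enolase 1, had a like profile, at 209 ± 26.5 CPM in control, 590.3 ± 62.9 in LL37 and 298 ± 47.5 in LL37 + RAPA, with log2 differences of 1.49 ± 0.16 and 0.99 ± 0.16. Pgk1, phosphoglycerate kinase 1 (ENSMUSG00000062070, chrX:106187100-106203699), was at 359, 305 and 399 CPM in control, 562, 557 and 445 in LL37, 192, 234 and 201 in LL37 + RAPA and 377, 278 and 309 in control + RAPA. Pgk1 rose by 0.56 ± 0.15 (adjusted p = 0.0106) in LL37 vs control, and fell by 0.76 ± 0.15 (adjusted p = 0.00524) in LL37 + RAPA vs control. Without control replicate 2, the rise was 0.44 (adjusted p = 0.0523).

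Ldha and Pkm, for the enzymes that make lactate and pyruvate, were not called in LL37 vs control, yet stood higher in LL37 than in LL37 + RAPA. Ldha (ENSMUSG00000063229, chr7:46841475-46855627) was at 1306, 1109 and 1363 CPM in control, 1221, 1236 and 956 in LL37, 542, 598 and 569 in LL37 + RAPA and 1264, 845 and 1116 in control + RAPA. Only LL37 + RAPA stood apart from the other groups, below all of them. The log2 difference was -0.15 ± 0.16 (adjusted p = 0.481) in LL37 vs control, 1.00 ± 0.16 (adjusted p = 0.0023) in LL37 vs LL37 + RAPA and -1.14 ± 0.16 (adjusted p = 0.000607) in LL37 + RAPA vs control. Pkm went from 1554 ± 222 CPM in control to 2176 ± 410.2 in LL37, a log2 difference of 0.49 ± 0.19 (adjusted p = 0.0625) that was 0.66 (adjusted p = 0.0119) without LL37 replicate 3, and was at 976 ± 102 in LL37 + RAPA. Gapdh could not be read as a change. It was at 10.2, 243 and 258 CPM in control, 27.6, 30.0 and 18.5 in LL37, 6.17, 9.01 and 36.2 in LL37 + RAPA and 370.5, 9.73 and 304 in control + RAPA. Within the groups without LL37, its libraries were either near 10 or above 240 CPM, and the log2 fold change in LL37 vs control was -2.75 ± 1.203 (adjusted p = 0.0868). Gapdh has many near-identical processed copies in the mouse genome. Whether the assignment of shared reads plays a part in its counts was not tested.

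Of the mitochondrial genes, 3 of 5 rose in LL37 vs control, beside 21% of all genes. Higher in LL37 than in LL37 + RAPA were 4, beside 11.8% of all genes. Ak4, a mitochondrial adenylate kinase (ENSMUSG00000028527, chr4:101419277-101466995), was at 17.8, 25.9 and 30.6 CPM in control, 80.1, 58.6 and 70.7 in LL37, 26.2, 28.2 and 28.6 in LL37 + RAPA and 20.98, 14.03 and 24.003 in control + RAPA. It rose by 1.49 ± 0.22 (adjusted p = 0.000282), with 1.33 ± 0.22 (adjusted p = 0.00244) between LL37 and LL37 + RAPA. Higd1a, a hypoxia-induced protein of the respiratory chain supercomplexes, was at 42.2, 55.5 and 70.6 CPM in control, 141, 109 and 119.6 in LL37, 55.9, 57.3 and 50.6 in LL37 + RAPA and 49.8, 35.1 and 54.4 in control + RAPA. The LL37 libraries lay above all others for both genes. Bnip3l rose by 0.29 ± 0.09 (adjusted p = 0.0251), while its relative Bnip3, also a receptor of mitophagy, went from 66.7 ± 10.6 to 69.4 ± 8.02 CPM and was lower with RAPA, at 43.0 ± 2.37 CPM in LL37 + RAPA (log2 difference 0.69 ± 0.19, adjusted p = 0.0233). Pdk1, a kinase that inhibits pyruvate dehydrogenase and so the conversion of pyruvate to acetyl-CoA, was at 40.2 ± 1.09 CPM in control, 38.5 ± 3.37 in LL37 and 30.6 ± 3.87 in LL37 + RAPA, and was called in LL37 vs LL37 + RAPA (0.33 ± 0.11, adjusted p = 0.0439), a call lost without LL37 replicate 3 (0.26, adjusted p = 0.1002).

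The enzymes that mature collagen and form disulfide bonds rose in 5 of 6 cases in LL37 vs control, beside 21% of all genes. Higher in LL37 than in LL37 + RAPA were 3 of 6, beside 11.8% of all genes. Ero1l, the oxidase that drives disulfide formation in the endoplasmic reticulum (ENSMUSG00000021831, chr14:45283087-45318771), was at 16.6, 17.7 and 22.2 CPM in control and 125, 104 and 77.8 CPM in LL37. It was at 21.3, 30.0 and 27.6 CPM in LL37 + RAPA and 15.4, 16.8 and 15.8 CPM in control + RAPA. Its log2 fold change of 2.44 ± 0.19 (adjusted p = 3.91e-06) was the largest rise among the 41 genes in LL37 vs control, and the difference in LL37 vs LL37 + RAPA was 1.96 ± 0.18 (adjusted p = 0.000525). Plod2, a lysyl hydroxylase of collagen, was at 6.09, 2.97 and 4.85 CPM in control, 14.7, 13.4 and 13.0 in LL37, 8.16, 9.87 and 7.62 in LL37 + RAPA and 5.64, 4.25 and 3.34 in control + RAPA. Plod2 rose by 1.56 ± 0.25 (adjusted p = 0.000549) in LL37 vs control, and LL37 + RAPA libraries lay between the LL37 libraries and the rest. Its difference in LL37 vs LL37 + RAPA, 0.68 ± 0.24 (adjusted p = 0.0607), was not called. P4ha1 and P4ha2, the prolyl hydroxylases of collagen, rose by 1.00 ± 0.13 and 0.70 ± 0.11 and were called in both comparisons. Loxl2 and Lox, which cross-link collagen, were at 53.8 ± 4.33 and 67.5 ± 17.0 CPM in LL37 and 49.4 ± 9.88 and 108 ± 14.7 CPM in LL37 + RAPA. Loxl2 rose in LL37 vs control (1.09 ± 0.26, adjusted p = 0.00558), whereas Lox was called only in LL37 + RAPA vs control (1.26 ± 0.33, adjusted p = 0.0242).

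Both glycogen genes fell with LL37, whether or not RAPA was given. Gys1, the glycogen synthase of muscle and most tissues other than liver (ENSMUSG00000003865, chr7:45434844-45456619), was at 230.1, 171 and 190.2 CPM in control and 49.9, 46.3 and 41.5 CPM in LL37. It was at 37.8, 34.1 and 37.1 CPM in LL37 + RAPA and 184, 151 and 183 CPM in control + RAPA. The log2 fold change was -2.10 ± 0.13 (adjusted p = 1.03e-06) in LL37 vs control and 0.34 ± 0.13 (adjusted p = 0.0703) in LL37 vs LL37 + RAPA. Gbe1, the glycogen branching enzyme (ENSMUSG00000022707, chr16:70313949-70569716), was at 45.3, 30.8 and 34.4 CPM in control, 8.93, 12.01 and 8.48 in LL37, 12.6, 13.5 and 10.3 in LL37 + RAPA and 37.0, 29.5 and 26.4 in control + RAPA, with a log2 fold change of -1.91 ± 0.20 (adjusted p = 2.8e-05) in LL37 vs control. For both genes, the 6 libraries with LL37 were below all 6 without it. Exons of Gys1 overlap Ruvbl2 on the other strand, and the library kit does not mark strand, so reads from these genes cannot be told apart there. The same holds for 16 of the 41 genes, Slc2a1, Aldoa, Tpi1 and Ndrg1 among them.

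Among the genes of signalling and chromatin, 3 of 5 rose in LL37 vs control, beside 21% of all genes. These were also higher in LL37 than in LL37 + RAPA, as were 11.8% of all genes. Ndrg1, a stress-responsive gene induced by hypoxia (ENSMUSG00000005125, chr15:66929318-66969640), was at 104, 93.0 and 116 CPM in control, 439, 346 and 305 in LL37, 136, 172 and 148 in LL37 + RAPA and 115, 155 and 131 in control + RAPA. It rose by 1.80 ± 0.16 (adjusted p = 9.94e-06), with 1.26 ± 0.16 (adjusted p = 0.00124) between LL37 and LL37 + RAPA. Ankrd37, a small ankyrin repeat protein and HIF target at low level, was at 2.05, 1.69 and 3.63 CPM in control, 5.77, 6.19 and 5.75 in LL37, 1.57, 2.01 and 2.98 in LL37 + RAPA and 3.36, 1.53 and 2.76 in control + RAPA. All LL37 libraries were above all others, and the rise was 1.26 ± 0.35 (adjusted p = 0.012), which was 1.14 (adjusted p = 0.0517) without control replicate 1 and 1.03 (adjusted p = 0.0539) without control replicate 2. Without LL37 + RAPA replicate 1, its difference in LL37 vs LL37 + RAPA was 1.24 (adjusted p = 0.0595). Kdm3a, a histone demethylase that uses oxygen, rose by 0.50 ± 0.10 (adjusted p = 0.00236). Ddit4, which encodes REDD1, an inhibitor of mTORC1, was at 202, 192 and 232 CPM in control, 189, 198 and 201 in LL37, 270.5, 204 and 174 in LL37 + RAPA and 248.5, 465 and 112 in control + RAPA. Its groups overlapped, and the log2 fold change was -0.09 ± 0.36 (adjusted p = 0.864) in LL37 vs control. Mxi1, an antagonist of Myc, changed by 0.06 ± 0.09 (adjusted p = 0.635).

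Per kilobase of exon, Aldoa was the most abundant of the 41 genes in control, at 2118 ± 237 CPM per kb, followed by Ldha (381 ± 40.2), Pkm (311 ± 44.4) and Tpi1 (245 ± 24.4). In LL37, Pkm (435 ± 82.0), Aldoa (349 ± 21.3) and Ldha (344 ± 47.6) came first and differed by less than the sum of their SDs. Taken as a share of all counts, the 41 genes held 1.33 ± 0.13% in control, 1.31 ± 0.18% in control + RAPA, 1.19 ± 0.13% in LL37 and 0.679 ± 0.021% in LL37 + RAPA. Lower glycolysis held 0.357 ± 0.046% in control and 0.493 ± 0.066% in LL37, while upper glycolysis, in which Aldoa weighs most, held 0.792 ± 0.081% and 0.337 ± 0.022%.

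Isozymes of phosphofructokinase, phosphoglycerate mutase and enolase, and the glucose transporters Slc2a4 and Slc2a1, moved in opposite directions. This did not hold for every step. Among hexokinases, Hk1 and Hk3 rose and Hk2 was not called, and of the lactate dehydrogenases Ldha was not called. For phosphofructokinase, the muscle type Pfkm was at 404 ± 65.4 CPM per kb in control and 6.91 ± 3.50 in LL37, beside 13.8 ± 2.11 and 40.7 ± 4.79 for Pfkl, so that Pfkm made up 94.1% of the 3 genes' level in control, 9.22% in LL37 and 45.7% in LL37 + RAPA. Pgam2, the muscle mutase, fell from 90.3% of the 2 mutases to 4.83%, and Eno3, the muscle enolase, from 94.8% of the 3 enolases to 8.90%. Slc2a4, the insulin-responsive transporter GLUT4 of muscle and fat, made up 55.0% of the 3 glucose transporters in control and 1.32% in LL37, and Slc2a1 43.8% and 96.9%. The log2 fold change in LL37 vs control was -5.87 ± 0.38 (adjusted p = 1.29e-06) for Pfkm, -5.97 ± 0.44 (adjusted p = 2.98e-06) for Pgam2, -6.00 ± 0.59 (adjusted p = 1.97e-05) for Eno3 and -4.26 ± 0.26 (adjusted p = 1.03e-06) for Slc2a4. Each was also lower in LL37 than in LL37 + RAPA, by 1.93 to 2.24 on the log2 scale, where Pfkl, Pgam1, Eno1 and Slc2a1 were higher.

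**Figure D3:**
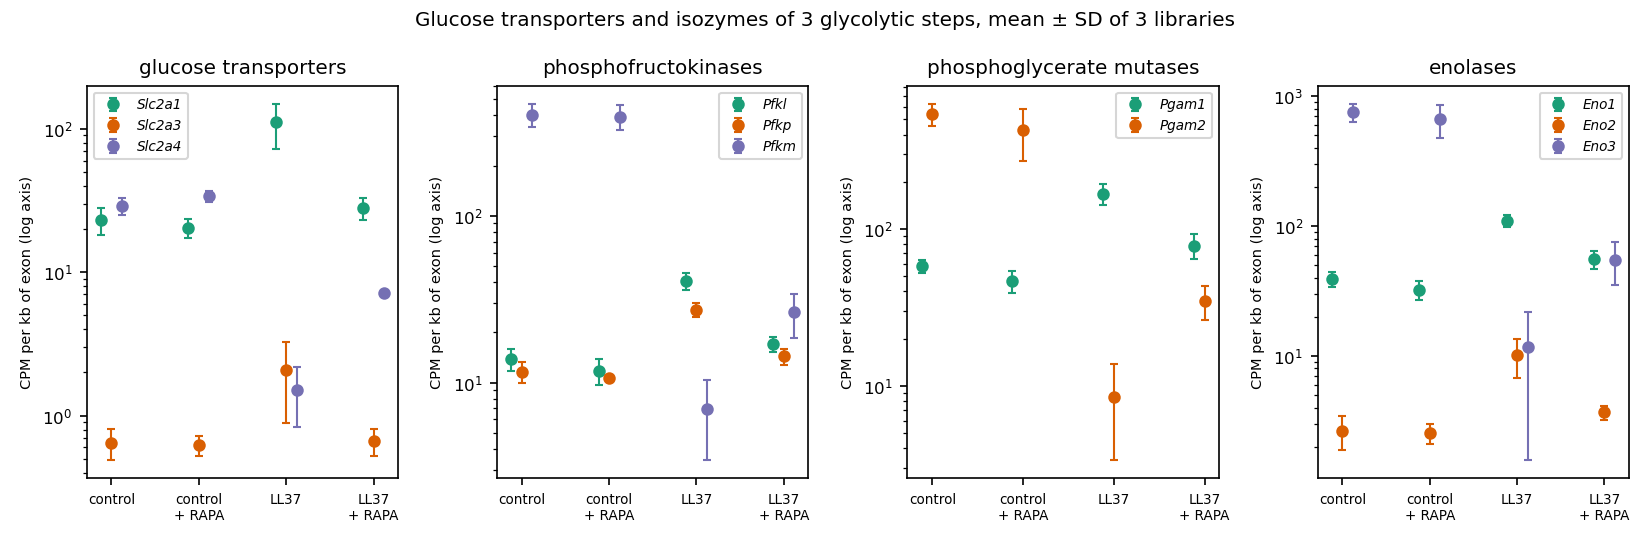
Level per kilobase of exon (log axis, mean ± SD of 3 libraries) of the glucose transporters and of the isozymes of phosphofructokinase, phosphoglycerate mutase and enolase in the 4 groups. The muscle isozymes Pfkm, Pgam2 and Eno3 are the highest points without LL37 and the lowest, or for Eno3 close to Eno2, in LL37, where Pfkl, Pgam1 and Eno1 lead.

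Markers of several other cell types moved with these genes. The 22 skeletal muscle markers held 3.89 to 5.64% of counts in control, 4.09 to 6.80% in control + RAPA, 0.00306 to 0.0997% in LL37 and 0.376 to 0.824% in LL37 + RAPA. All 21 that could be tested fell in LL37 vs control, with a median log2 fold change of -7.07, beside 21.6% of all genes. All 21 were lower in LL37 than in LL37 + RAPA, with a median of -3.95, beside 12.4% of all genes. Cacna1s, Myh2, Myh4 and Pvalb were at 0 in at least 1 LL37 library, and in LL37 replicate 3 the muscle share was far above that of the other LL37 libraries (0.00306 and 0.00357%). The part of skeletal muscle in the falls of Aldoa, Gys1, Gbe1 and Gpi1 was not tested. With the muscle list left out of the scaling, 30 of the 41 genes were called against control and 28 against LL37 + RAPA. The share of all genes called with that scaling was not computed. In LL37 vs LL37 + RAPA, the muscle markers and the 29 called genes of the list differed in opposite directions. In whole skin, fewer cells of a type and less RNA per cell cannot be told apart.

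The 13 epidermal markers held 2.86 to 3.76% of counts in control, 4.15 to 5.54% in LL37 and 3.35 to 3.50% in LL37 + RAPA, with 6 genes higher and 1 lower in LL37 vs control and 7 higher in LL37 vs LL37 + RAPA. Krt16 and Krt6a, keratins of activated epidermis, rose most of the list, by 4.46 ± 0.95 (adjusted p = 0.00302) and 2.15 ± 0.42 (adjusted p = 0.00182) on the log2 scale. The 14 neutrophil markers held 0.00617 to 0.0138% in control, 0.0342 to 0.295% in LL37 and 0.0169 to 0.0507% in LL37 + RAPA, and of 11 tested, 10 rose and 1 fell in LL37 vs control and 3 were higher in LL37 than in LL37 + RAPA. The 12 macrophage markers held 0.0779 to 0.135%, 0.242 to 0.319% and 0.201 to 0.337%, with 11 higher in LL37 vs control and 6 higher in LL37 vs LL37 + RAPA. Of 10 adipocyte markers, 9 fell in LL37 vs control and 10 were lower in LL37 than in LL37 + RAPA. Fibroblast markers changed in 3 of 8 cases (2 higher, 1 lower), endothelial markers in 3 of 8 (all lower) and hair follicle markers in 3 of 8 tested (1 higher, 2 lower). Over all genes, 42.6% were called in LL37 vs control, 21% higher and 21.6% lower, so these last lists were called no more often. In LL37 vs LL37 + RAPA, 11.8% of all genes were higher and 12.4% lower. The part of each of these cell types in the levels of the 41 genes was not tested.

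**Figure D4:**
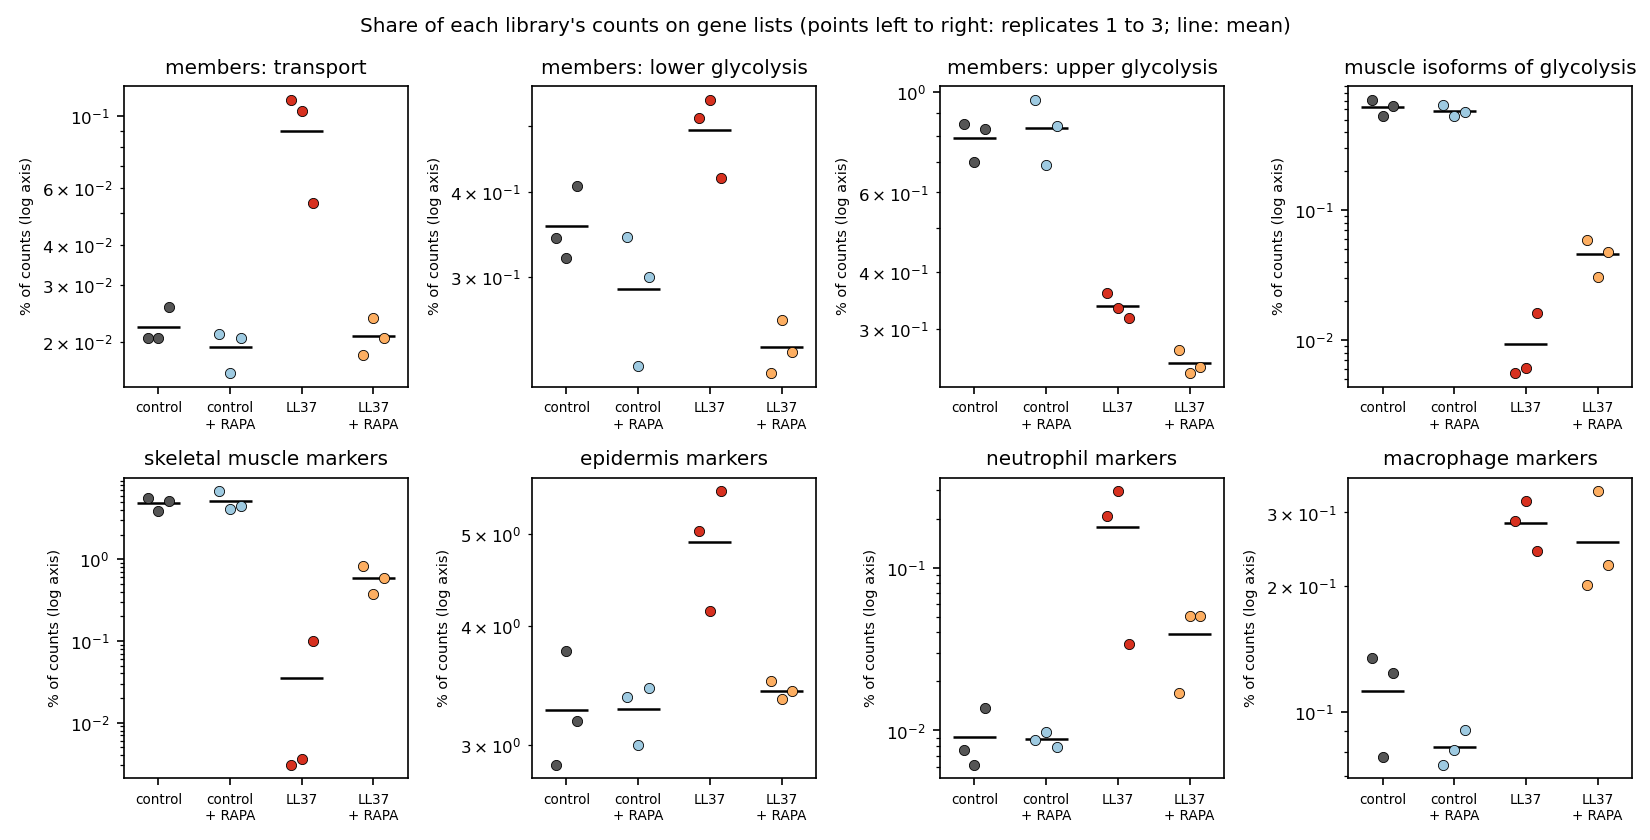
Share of each library's counts (percent, log axes that differ between panels) on 3 of the role groups, on the muscle isoforms of glycolysis and on 4 lists of cell type markers, with points from left to right for replicates 1 to 3 and lines at the means. The 3 LL37 libraries are lowest for skeletal muscle markers and highest for transport, and LL37 replicate 3 is the LL37 library nearest to control for transport, lower glycolysis, muscle and neutrophil markers.

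Genes of the same pathways outside the 41 were read from lists of their own. Of all genes, 21% rose and 21.6% fell in LL37 vs control, and 11.8% were higher and 12.4% lower in LL37 than in LL37 + RAPA. Of 15 genes that control HIF, 3 rose and 6 fell in LL37 vs control, and 1 was higher and 3 lower in LL37 than in LL37 + RAPA. Rises in this list were thus no more frequent than over all genes. The largest changes were those of Hif3a, an inhibitory HIF subunit (-1.94 ± 0.44, adjusted p = 0.00438), Ube2d1, a ubiquitin-conjugating enzyme (-1.09 ± 0.12, adjusted p = 4.73e-05), and Hif1an, the asparaginyl hydroxylase FIH (-0.92 ± 0.09, adjusted p = 2.61e-05). Of 28 further HIF targets tested, 14 rose and 3 fell in LL37 vs control, with a median of 0.70, and 13 were higher and 4 lower in LL37 than in LL37 + RAPA, with a median of 0.57. Car9, the cell-surface carbonic anhydrase, went from 2.14 ± 0.54 CPM in control to 20.0 ± 0.99 in LL37 and 3.93 ± 0.78 in LL37 + RAPA, with log2 differences of 3.22 ± 0.21 (adjusted p = 1.38e-06) and 2.34 ± 0.20 (adjusted p = 0.000332). Nos2, the inducible nitric oxide synthase, rose by 4.51 ± 0.68 (adjusted p = 0.000353). It was at 1.49 ± 0.10 CPM in control and 34.1 ± 35.6 in LL37, where the libraries spread from 8.20 to 74.7 CPM. Ppp1r3c, a glycogen-targeting subunit of protein phosphatase 1, fell by 6.18 ± 0.69 (adjusted p = 4.7e-05). Vegfa, the vascular growth factor, rose by 0.92 ± 0.20 (adjusted p = 0.00364) and was chosen after its values were seen.

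All 11 muscle forms of glycolytic and glycogen genes fell in LL37 vs control, with a median log2 fold change of -5.87, and 10 were lower in LL37 than in LL37 + RAPA. Pygm (log2 fold change -7.86 ± 0.86), Ppp1r3a (-7.56 ± 0.48) and Pdk4 (-6.21 ± 0.49) fell most. The 22 other tested genes of glycolysis and pyruvate use were mixed, with 6 higher and 11 lower in LL37 vs control and 5 higher and 3 lower in LL37 vs LL37 + RAPA. Over all genes, the shares higher and lower were 21% and 21.6% in the first comparison and 11.8% and 12.4% in the second. Hk3, the hexokinase of blood cells, rose by 2.89 ± 0.49 (adjusted p = 0.000697), while Pdk2, a kinase that inhibits pyruvate dehydrogenase, fell by 4.01 ± 0.29 (adjusted p = 2.28e-06). In the pentose phosphate pathway, 3 of 7 genes rose in LL37 vs control, Rpe by 0.57 ± 0.13 (adjusted p = 0.00358) and Pgd by 0.35 ± 0.10 (adjusted p = 0.0177) among them, and 0 of 7 were called in LL37 vs LL37 + RAPA.

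Fewer of the 41 genes were called when the LL37 mice had been given RAPA, and several glycolytic genes were then below control. In LL37 + RAPA vs control, 4 of the 41 genes were higher (Plod2, Lox, Loxl2 and Ndrg1) and 11 lower, beside 5.03% and 9.01% of all genes. The genes lower than in control were Aldoa, Gpi1, Hk2, Tpi1, Pgk1, Pkm, Ldha, Pdk1, Bnip3, Gys1 and Gbe1. In the same groups, the 22 skeletal muscle markers held 0.595 ± 0.224% of counts in LL37 + RAPA and 4.88 ± 0.89% in control. Of 21 tested, 13 were lower and 0 higher, with a median log2 fold change of -3.20. All 11 muscle forms of glycolytic and glycogen genes were lower too. The part of skeletal muscle in the falls of the 11 genes named above was not tested. Tpi1 was at 292 ± 12.5 CPM in LL37 + RAPA and 674 ± 67.2 in control (-1.21 ± 0.16, adjusted p = 0.000455), and Hk2 at 67.3 ± 5.43 and 183 ± 48.1 (-1.44 ± 0.30, adjusted p = 0.00762). The median over the 41 genes was 0.05, beside 0.0048 over all genes. Scaled by library size alone, the counts were 11 higher and 8 lower, and the share of higher calls among all genes moved from 35.8 to 61.3%, with the median of all genes at 0.13. Without control replicate 3, or without LL37 + RAPA replicate 2, 8 of the 41 genes were called, all of them lower. The share of all genes called in these 2 fits was not computed. Without LL37 replicate 3, which enters the fit through the spread, 21 were called, 9 higher and 12 lower, beside 18.6% of all genes.

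LL37 + RAPA vs control + RAPA, which shares no library with LL37 vs control, gave 8 higher and 10 lower, beside 8.2% and 10.4% of all genes, and a median of 0.02, beside -0.0060 over all genes. The genes that rose here were Pfkl, Pfkp, Pgam1, Eno1, P4ha1, Plod2, Loxl2 and Ero1l, with log2 fold changes from 0.44 for Pfkp to 1.55 for Loxl2. For Ero1l the change was 0.72 ± 0.18 (adjusted p = 0.0179) with RAPA on both sides and 2.44 ± 0.19 without it. Egln3 changed by 0.04 ± 0.16 (adjusted p = 0.896) with RAPA on both sides, and Slc2a1 by 0.46 ± 0.24 (adjusted p = 0.221). The fall of Aldoa was -2.72 ± 0.18 (adjusted p = 6.33e-06) and that of Gys1 -2.25 ± 0.13 (adjusted p = 1.97e-06), near those without RAPA. Scaled by library size alone, 11 were higher and 10 lower, and the share of higher calls among all genes moved from 44.2 to 72.5%, with the median of all genes at 0.18. Without LL37 replicate 3, 10 were higher and 11 lower, beside 22.8% of all genes.

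Whether the change with LL37 differed between mice without and with RAPA was tested directly as the interaction of the treatments. Of the 41 genes, 11 had a signed log2 change with LL37 that was higher without RAPA than with it, and 0 had one that was lower, beside 1.13% and 2.15% of all genes. They were Egln3, Slc2a1, Slc16a3, Hk1, Pfkl, Pfkp, Pgk1, Bnip3, Ero1l, Ndrg1 and Mxi1. For Pgk1 the change was 0.56 without RAPA and -0.62 with it, for Bnip3 0.06 and -1.12, and for Mxi1 0.06 and -0.47, so these were not larger in size without RAPA. The difference was 1.86 ± 0.22 (adjusted p = 0.0142) for Egln3, 1.62 ± 0.22 (adjusted p = 0.0171) for Ndrg1, 1.73 ± 0.26 (adjusted p = 0.0193) for Ero1l and 1.18 ± 0.21 (adjusted p = 0.0242) for Pgk1. For Hif1a it was 1.33 ± 0.44 (adjusted p = 0.108), which was not called with all libraries and was 1.68 (adjusted p = 0.000355) without LL37 replicate 3. The median over the 41 genes was 0.77, beside -0.0081 over all genes. The count was fragile, since it was 25 without LL37 replicate 3 (17.1% of all genes called) and 0 without LL37 + RAPA replicate 1 (0.0108%). It was 2 without control replicate 1 or control + RAPA replicate 3, and 3 without LL37 + RAPA replicate 3. It was 4 without LL37 replicate 1, and 5 without control replicate 3 or control + RAPA replicate 1. The share of all genes called was not computed for the fits with 2 to 5 calls. Those counts thus cannot be read as a result about the 41 genes alone. Without LL37 + RAPA replicate 1, edgeR still gave 29 of the 41 genes an unadjusted p under 0.05, beside 17.4% of all genes, where with all libraries it was also 29, beside 22.5%. DESeq2 with all libraries called 25, beside 9.71% of all genes. Scaled by library size alone, 8 genes were called, and the share of higher calls among all genes moved from 34.4 to 21.04%, with the median of all genes at -0.11.

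Without LL37, RAPA gave no call. In control + RAPA vs control, edgeR called 0 of the 41 genes and 0 of all genes at an adjusted p under 0.05 (0%), with 5 of the 41 and 1556 of all genes (8.65%) at an unadjusted p under 0.05. DESeq2 called 0 of the 41 and 109 of all genes (0.606%). The log2 differences ran from -0.58 for Loxl2 to 0.55 for Lox, with a median of -0.08. The libraries of the 2 groups did not overlap for Bnip3l and Mxi1, both higher with RAPA, beside 15.7% of all genes.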

How the data were processed

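RNA from whole skin was sequenced as 100-bp pairs with a kit that does not mark strand, and the authors deposited raw counts per gene for 12 libraries. The study's methods name HTSeq and DESeq for counting and testing, while the submitters' processing notes list HISAT2 2.0.5, StringTie 1.3.3b, featureCounts 1.5.0-p3, DESeq2 1.16.1 and mm10, so the counting tool is not settled. Totals were 15734559 to 23271784 counts per library.

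From these counts, edgeR 4.0.16 (R 4.3.3) was run with TMM scaling, its group-based filter on low counts (17993 genes kept) and 1 quasi-likelihood fit over all 12 libraries, for 6 comparisons with Benjamini-Hochberg adjustment over all genes tested. SEs were derived from the log2 fold change and its F statistic. The tests are two-sided. A gene rose or fell where the adjusted p was under 0.05. An exact permutation test of 3 against 3 cannot give a p under 0.1 and was not used. Annotation was GENCODE M21 (GRCm38). Levels per kilobase used exon length. Of 42 rows with the 41 symbols, 2 carry Aldoa, and the row at the RefSeq gene was used. The scripts were tested on simulated data.

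The genes, the lists and their roles were chosen with earlier results of these data known. Values in every library are given for Hif1a, Epas1, Egln1, Egln3, Slc2a1, Ldha, Ero1l, Ddit4, the 2 genes of each role with the largest change in LL37 vs control, and up to 4 called in the interaction. From each other pathway list, up to 3 genes with the largest change among those called and not overlapping are named. A gene that this rule names is not reported here. Vegfa, the isozymes of a step, Krt16 and Krt6a were named after their values were seen. The study calls the samples of a group independent biological samples, but no label says that libraries are separate mice, so p-values measure the spread between these libraries, which may be technical. No libraries agreed within sampling noise. Alternatives were other scalings, filters, DESeq2 1.42.0, a fold limit, fits of only the groups compared, a replicate block and leaving out each library of the groups compared, plus LL37 replicate 3 for all comparisons.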

Additional observations from a re-analysis of the deposited data

Results flagged for a closer look

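The LL37 change differed between mice without and with RAPA for 11 of the 41 genes by a test of the difference itself, the interaction in the edgeR fit. In each, the signed log2 change with LL37 was higher without RAPA. On the log2 scale the difference was 2.81 for Slc16a3, 1.86 for Egln3, 1.80 for Slc2a1, 1.73 for Ero1l, 1.62 for Ndrg1, 1.18 for Pgk1, 1.18 for Bnip3, 1.021 for Pfkl, 0.79 for Pfkp, 0.56 for Hk1 and 0.52 for Mxi1. For Bnip3 and Mxi1, LL37 vs control was not called (0.06 for each on the log2 scale), and the difference came with falls of 1.12 and 0.47 in LL37 + RAPA vs control + RAPA. Part of these falls lay in control + RAPA, which stood 0.49 and 0.29 above control for the 2 genes, without a call. In LL37 + RAPA vs control, Bnip3 differed by -0.63, which was called, and Mxi1 by -0.18, which was not. Pgk1 rose by 0.56 without RAPA and fell by 0.62 with it. These calls rest on 3 libraries a group, and how many were made depended on which library was left out.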

How the results depend on the processing

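Leaving out each library of the groups compared in turn gave 28 to 31 of the 41 genes called in LL37 vs control (30 with all), 24 to 29 in LL37 vs LL37 + RAPA (29), 8 to 12 in LL37 + RAPA vs control (15), 13 to 18 in LL37 + RAPA vs control + RAPA (18), 0 to 0 in control + RAPA vs control, and 0 to 25 in the interaction (11). The lowest interaction count came without LL37 + RAPA replicate 1 and the highest without LL37 replicate 3. Values without LL37 replicate 3 for all genes, and for comparisons that do not use it, were computed after seeing the data, and LL37 + RAPA vs control and LL37 + RAPA vs control + RAPA then had 21 calls each. DESeq2 called 25 genes in the interaction. With a log2 limit of 1 added, fewer genes were called by construction, 17 in LL37 vs LL37 + RAPA, 7 in LL37 + RAPA vs control and 6 in LL37 + RAPA vs control + RAPA. With the replicate block, the interaction had 4 calls, and the other comparisons 30, 29, 10, 17 and 0. The numbers do not pair the libraries, since 4 of 18 same-numbered pairs correlated above 0.1 (from -0.188 to 0.263) and 6 of 18 correlated best with their own number. For most of these settings the share of all genes called was not computed, so the counts cannot be set beside it. The cause of these shifts was not tested.

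For the genes given in every library, 286 of the values in LL37 vs control stayed on the same side of the threshold, 6 lost their call and 2 gained one, and in LL37 vs LL37 + RAPA these were 289, 1 and 4. No gene that was called, with all libraries or in the other setting, reversed its direction. Changes of sign without a call were counted as the same. Epas1 in LL37 vs control, for one, went from -0.06 to 0.26 (adjusted p = 0.181) without LL37 replicate 3. Lost calls were those of Egln1, Ankrd37 and Pgk1 given above, and among the other genes that of Pdk1 without LL37 replicate 3. Gapdh was called in LL37 vs control with a filter of 1 count in total (adjusted p = 0.0418) or without control replicate 1 (0.0348). In LL37 vs LL37 + RAPA, Gys1 was called with the replicate block (0.0424) or without LL37 replicate 3 (0.0377), and Plod2 with DESeq2 (0.0267) or only the groups compared (0.031). A count of 0 allows up to 0.123 to 0.184 CPM by library, for counting error only.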
